A study of Mus musculus with 2 samples.

Results

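Kinesins are motor proteins that walk along microtubules, and their genes were compared here between 2 embryonic mouse lungs, of which 1 carried a single Foxj1lacZ allele and the other carried a pair. Members were the array probes whose file name or current symbol is that of a kinesin heavy chain (Kif), a kinesin light chain (Klc) or Kifap3, with Kif7 left out. The rule found 89 of 41174 mouse probes. A probe for Kif6 that only the file's own description names was added, which gave 90 probes for 45 genes out of 27598. Of these, 75 probes for 43 genes stood clearly over the scanner's background in either channel and are called measured below. Of the 43 genes, 42 were measured in both channels and Kif17 in the homozygous channel only. Kif2b and Kif13b were not well above background on any probe.

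The animals were male litter mates at E16.5 on an Sv129/CD-1 hybrid background, and the lung lobes were taken after tissue outside the lobes had been removed. The heterozygous RNA carried Cy3 (green) and the homozygous RNA Cy5 (red), both on 1 two-colour array with no dye swap. A dye effect and a genotype effect therefore cannot be told apart, and since each genotype is a single lung, the differences below have no replicate check and no p-value. Both lungs carry the lacZ allele, the heterozygous one beside an intact copy of Foxj1, and no wild-type lung is part of the comparison. One label calls the samples epithelium, but they are whole lobes, and muscle, nerve and blood transcripts were measured in them. In whole lobes, fewer cells of a type and less RNA per cell cannot be told apart. A ratio is log2 of homozygous over heterozygous, and ± gives the error that the scanner software attached to its own log ratio of the same spots. For a gene read by several probes, ± is the median of the errors of its probes and not an error of their median. The error covers spot noise and not differences between animals. The ratios given here come from another background correction that pulls dim spots towards 0. A level is the log2 brightness of a spot in 1 channel after background and dye correction. Levels of different probes depend on the probe and are not set against each other as expression.

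Some kinesins serve cilia. The heterotrimeric motor of Kif3a, Kif3b and the adaptor Kifap3 pulls intraflagellar transport trains from the base of a cilium to its tip, and it serves primary cilia as well as motile ones. Kif6, Kif9 and Kif27 are known from motile cilia and flagella, the kind of cilium whose genes the forkhead factor Foxj1 switches on in airway cells. Mitotic kinesins build the spindle, move chromosomes and complete cell division, so their transcripts follow the number of dividing cells.

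The 60-base probes behind the ciliary results are shown because 1 probe decides each of Kif6, Kif9 and Kif27. Positions are those of the array file on mm8. The Kif9 probe, chr9:110366155-110369733 on the plus strand, reads across a splice junction, since its span on the genome is longer than 60 bases. The Kif6 probe lies at chr17:49140853-49140912 on the plus strand and the Kif27 probe at chr13:58297781-58297840 on the minus strand, the strand of each gene. The file also names a probe on the opposite strand after Kif27, at chr13:58297866-58297925, and that probe was not well above background in either channel.
Kif9: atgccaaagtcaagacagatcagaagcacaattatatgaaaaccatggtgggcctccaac
Kif6: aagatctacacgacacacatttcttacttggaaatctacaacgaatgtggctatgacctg
Kif27: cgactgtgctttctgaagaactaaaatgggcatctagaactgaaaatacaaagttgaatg
Kif27, opposite strand: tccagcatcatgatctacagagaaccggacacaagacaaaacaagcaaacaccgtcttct

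No measured kinesin differed by 2-fold between the channels. Of the 43 genes, 0 were at least 2-fold lower, against 1.88% of all 21172 genes measured, and 0 were at least 2-fold higher, against 0.576%. At the smaller size of 1.5-fold, chosen after the values were seen, Kif5a and Klc3 were lower, which is 4.65% of the kinesins against 5.87% of all genes. Kif12 and Kif18b were higher by that size, again 4.65%, against 2.1% of all genes. The ratio lay beyond its own scanner error on the lower side for 8 kinesins (18.6%, against 20.1% of all genes) and on the higher side for 6 (14.0%, against 14.9%). The other 29 lay within it. Set against the scanner's own ratio, to which the error belongs, 9 kinesins lay beyond it on the lower side (20.9%, against 24.2% of all genes), 11 on the higher side (25.6%, against 27.2%) and 23 within it. Kif13a, Kif15, Kif17, Kif21a, Kif21b, Kif27 and Kifc3 lay beyond the error on the scanner's ratio alone, and Kif1c on the ratio given here alone. The median over the kinesins was 0.01, with 20 of 43 below 0 (46.5%), beside a median of −0.0027 over all genes with 50.4% below 0. Apart from the 1.5-fold higher calls, which are 2 genes, these shares are near those of the array as a whole or below them.

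**Figure D1:**
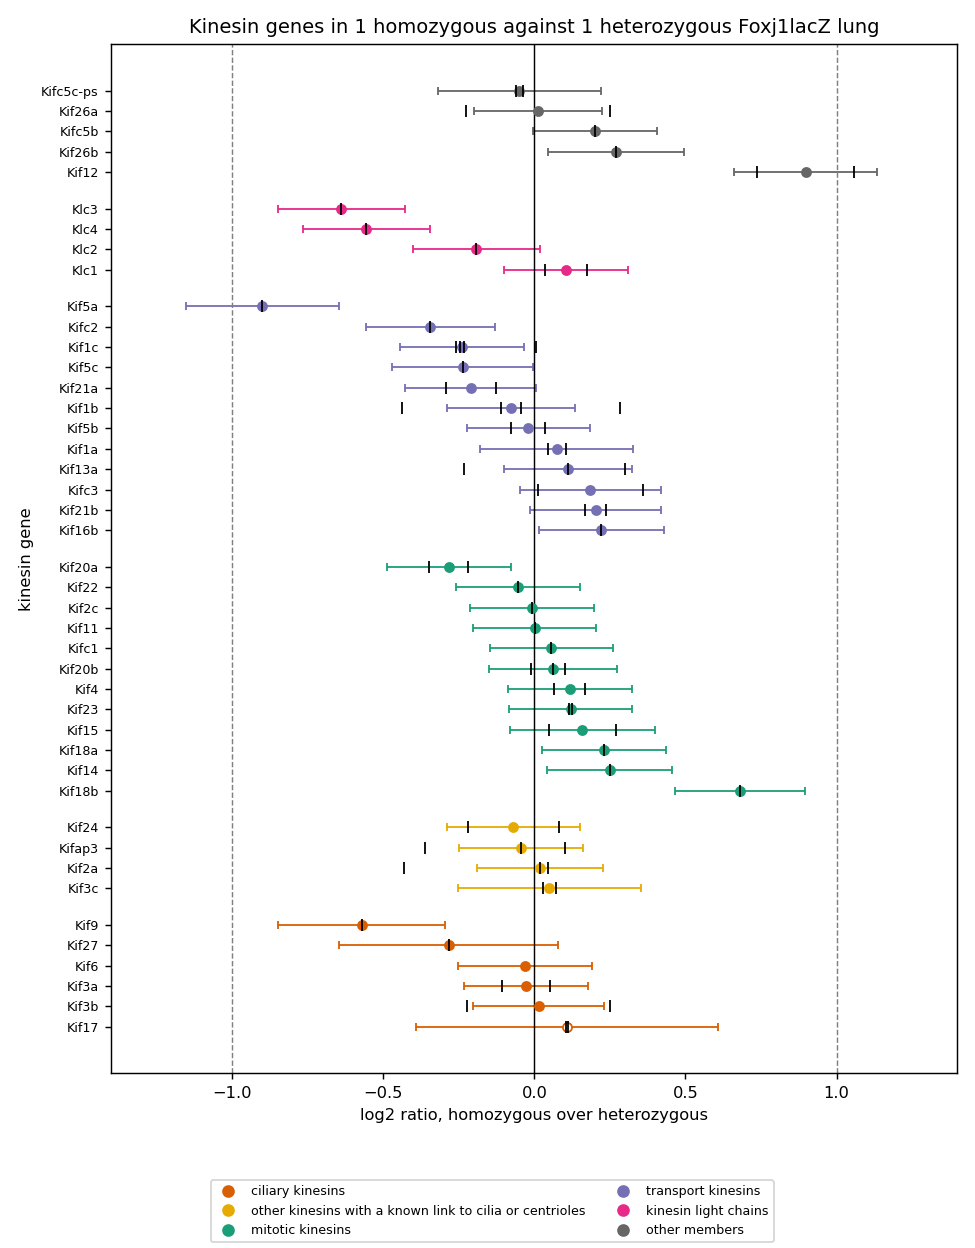
Log2 ratio, homozygous over heterozygous, of the 43 measured kinesin genes by group, with the scanner error as bars. Black ticks are single probes (none is drawn for Kif6), the open circle is Kif17, measured in 1 channel, and dashed lines mark 2-fold. Kif5a at −0.90 and Kif12 at 0.90 lie farthest from 0, and no gene crosses a dashed line.

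Among the 6 ciliary kinesins, Kif9 had the lowest ratio and Kif27 the next lowest. Kif9, a kinesin of the central apparatus known from sperm flagella, had a level of 7.49 in the heterozygous and 6.92 in the homozygous lung. The ratio was −0.57 ± 0.27, or 1.49-fold lower, just short of the 1.5-fold used for a count. The scanner's own ratio was −1.01, so the difference exceeded the error on both scales.

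Kif27, a kinesin linked to building the central pair of motile cilia, was dimmer still, at levels of 6.96 and 6.68. Its ratio of −0.28 ± 0.36 lay within the error, but the scanner's own ratio of −0.88 lay beyond it. With an offset of 0 the ratio was −0.51. With median centring it was −0.55, beside a median of −0.22 for genes at mean levels of 6 to 8, where Kif27 lies. The ratio was thus below 0 under each of these corrections, but its size differed between them and as reported it lay within the error. Kif6, the closest relative of Kif9 and known from the motile cilia of the brain ventricles, had levels of 7.75 and 7.72 and a ratio of −0.03 ± 0.22. The scanner's own ratio for Kif6 was 0.04, also within the error. Kif6, Kif9 and Kif27 were each read by 1 kept probe.

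The transport motor shared by all cilia stood near 0. The 2 probes of Kif3a had levels of 10.21 and 10.16 in the heterozygous lung and 10.10 and 10.21 in the homozygous lung. Their ratios were −0.11 and 0.05, and the gene's ratio was −0.03 ± 0.20. For Kif3b the levels were 8.37 and 7.97 in the heterozygous and 8.62 and 7.75 in the homozygous lung. Those probes pointed in opposite directions, at 0.25 ± 0.21 and −0.22 ± 0.22, each slightly beyond its error, so the gene's ratio of 0.01 is a midpoint between 2 unlike readings.

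Kifap3, the adaptor of this motor, was read by 3 probes. Levels were 12.62, 12.45 and 11.20 in the heterozygous lung and 12.58, 12.08 and 11.30 in the homozygous lung. The probes stood at −0.05, −0.36 and 0.10, with a gene ratio of −0.05 ± 0.20, and only the second lay beyond its error. Kif3c, a relative of Kif3b that can pair with Kif3a, was at 0.05 ± 0.30.

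Kif17, a homodimeric motor of the same family known from sensory cilia and dendrites, passed the background filter on 2 probes in the homozygous channel and on none in the heterozygous channel. The levels of those probes were 6.51 and 6.64 (heterozygous) against 6.62 and 6.74 (homozygous). The ratio was 0.11 ± 0.50 here, 0.55 on the scanner's own scale and −0.22 with median centring. Its direction is therefore not settled. Other kinesins act on the growth and loss of cilia. Kif24, which holds back cilium growth from the mother centriole, stood at −0.07 ± 0.22, from 2 probes at −0.22 ± 0.21 and 0.08 ± 0.24. The lower of these was the brighter, slightly beyond its error here and within it on the scanner's own ratio (−0.19). Kif2a, a microtubule-shortening kinesin that takes primary cilia apart, stood at 0.02 ± 0.21. For Kif2a, the brightest of 3 probes differed from the rest, at −0.43 ± 0.21 with levels of 11.96 and 11.53. One of the others passed the background filter in the homozygous channel alone, and without it the ratio of Kif2a was −0.21. No probe of Kif19a was matched, and it was not analysed here.

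**Figure D2:**
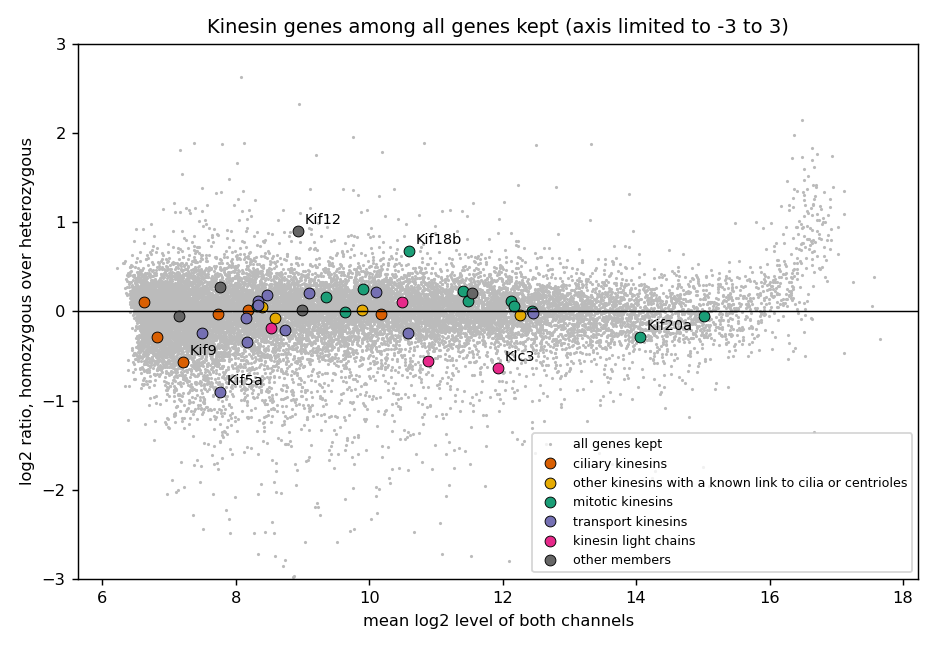
Log2 ratio against the mean log2 level of both channels for all 21172 measured genes (grey) and the kinesins by group (coloured). The kinesins lie within the grey cloud at every brightness, with Kif12 (0.90) and Kif18b (0.68) on its upper side and Kif5a (−0.90), Klc3 (−0.64) and Kif9 (−0.57) on its lower side.

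The mitotic kinesins were measured throughout, and 8 of the 12 lay within their scanner error. Set against the scanner's own ratio it was 7 of 12, with Kif15 then beyond it at 0.30. Their median ratio was 0.09, with 9 of 12 above 0 and a range of −0.28 to 0.68. Kif11, the motor that pushes spindle poles apart, had a level of 12.43 in both lungs and a ratio of 0.0005 ± 0.20. Kif2c, which shortens microtubules at the kinetochore, stood at −0.01 ± 0.20 with levels of 9.64 and 9.63. The chromosome-arm motor Kif22 had levels of 15.04 and 14.99 and a ratio of −0.05 ± 0.20. These 3 motors of early mitosis did not differ between the lungs beyond spot noise.

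Kif4, a chromosome motor that also shapes the central spindle, was read by 2 probes whose sequences overlap. They are printed because they give a check of 1 transcript end on 2 spots, with the 20 shared bases in capitals. Levels were 10.73 and 12.11 in the heterozygous lung and 10.90 and 12.18 in the homozygous lung. The first probe lies at chrX:96929465-96929525 and the second at chrX:96929505-96929565 on mm8, plus strand. The ratios were 0.17 and 0.07, each within its error of 0.20, although the spots differed in brightness.
Kif4, first probe: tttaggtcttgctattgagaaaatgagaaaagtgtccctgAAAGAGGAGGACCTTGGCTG
Kif4, second probe: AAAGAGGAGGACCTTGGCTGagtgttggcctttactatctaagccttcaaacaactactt

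The motors of late mitosis and cytokinesis were mixed in sign. Kif23, the motor subunit of centralspindlin, had levels of 12.06 and 12.18 and a ratio of 0.12 ± 0.20. Kif20a, which carries the chromosomal passenger complex to the midzone, was the lowest of the group at −0.28 ± 0.21, with both probes below 0 (levels of 13.85 and 14.56 against 13.63 and 14.21). Kif20b, a cytokinesis kinesin, was at 0.06 ± 0.21, with its 3 probes between −0.01 and 0.10, and Kif14, which acts with the kinase Citron at the midbody, at 0.25 ± 0.21 with levels of 9.79 and 10.04. Of these 4, Kif20a and Kif14 lay beyond their errors, in opposite directions.

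Kif15, a second spindle-pole motor, was at 0.16 ± 0.24, from probes with levels of 11.50 and 7.04 (heterozygous) and 11.55 and 7.31 (homozygous). The ratio of Kif18a, which dampens chromosome movement at the metaphase plate, was 0.23 ± 0.21, with levels of 11.30 and 11.53. Its relative Kif18b, which trims astral microtubules, had the highest ratio of the mitotic kinesins at 0.68 ± 0.22, or 1.60-fold, with levels of 10.25 and 10.93 on 1 probe at chr11:102722022-102722081 (mm8, minus strand). Kifc1, a minus-end motor that focuses spindle poles, had levels of 12.14 and 12.20 and a ratio of 0.06 ± 0.20. Its near-identical copy Kifc5b stood at 0.20 ± 0.20. The file names both of those probes Kifc1 and places them within chr17:26653488-26659763 on mm8, both on the plus strand. By its accession, 1 of them is Kifc5b, a gene on that strand. The other kept the file's name and lies on the strand opposite to Kifc1. The copies therefore cannot be told apart here, and both values are uncertain as to gene. The probe called Kifc1 is still counted among the 12 mitotic kinesins.

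Set side by side, the ciliary kinesins had a median of −0.03 (range −0.57 to 0.11) and the mitotic kinesins a median of 0.09 (range −0.28 to 0.68). The upper end of the ciliary range is Kif17, which was measured in the homozygous channel only. The difference of the medians was −0.12 on the log2 scale, and the ranges overlap. The median scanner error of a single gene was 0.25 among the ciliary and 0.21 among the mitotic kinesins. With the log ratios centred on the array median in place of loess, the difference was −0.77, with the ciliary kinesins at −0.11, the mitotic kinesins at 0.66 and all genes at 0.22. All 12 mitotic kinesins, Kif20a, Kif22 and Kif2c included, were then above 0. Under that centring the ratio of all genes depended on spot brightness, with a median of −0.22 for genes at mean levels of 6 to 8 and 0.53 at levels of 10 to 12. The ciliary probes were mostly dim spots (median level 7.62 in the heterozygous channel) and the mitotic ones bright (11.36). The part of brightness in the larger difference was not tested.

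**Figure D3:**
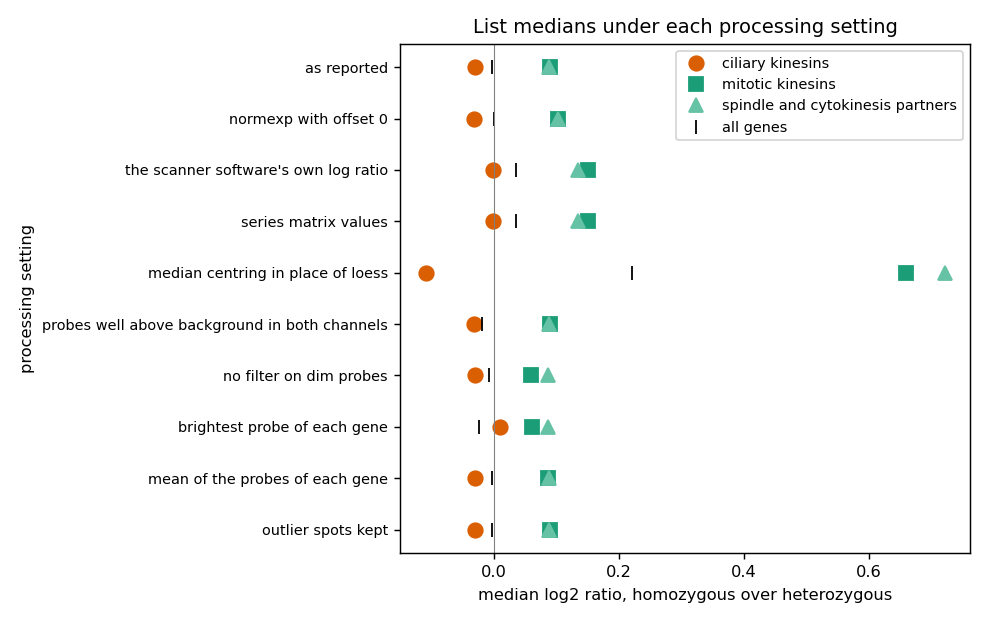
Median log2 ratio of the ciliary kinesins, the mitotic kinesins, the spindle and cytokinesis partners and all genes under the reported processing and 9 alternatives. Medians of the mitotic kinesins and their partners lie between 0.06 and 0.15 except with median centring, where they reach 0.66 and 0.72 and all genes reach 0.22.

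The genes that kinesins work with were taken from lists drawn up with earlier results of this array known. All 25 listed components of the intraflagellar transport trains and their return motor were measured, none differed by 2-fold, and 20 of 25 had ratios below 0. Their median was −0.15. The lowest were the train component Ttc30b (−0.62 ± 0.21), Ift27 (−0.45 ± 0.21) and the return motor's heavy chain Dync2h1 (−0.41 ± 0.21, with 5 probes from −0.93 to 0.05), and the highest were Ift52 (0.15 ± 0.21) and Ttc21b (0.44 ± 0.24). With median centring the list median was 0.35, beside 0.22 over all genes. Under that centring, genes at mean levels of 8 to 10, 10 to 12 and 12 to 14 had medians of 0.29, 0.53 and 0.62. Most of the listed genes lie at those levels.

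All 24 spindle and cytokinesis partners of the mitotic kinesins were measured too, with a median of 0.09, 18 of 24 above 0 and none past 2-fold. The lowest were the spindle protein Nusap1 (−0.14 ± 0.21), the kinetochore kinesin Cenpe (−0.09 ± 0.20) and Prc1, which bundles the central spindle (−0.08 ± 0.20). The kinases Ttk (0.41 ± 0.21) and Plk1 (0.30 ± 0.21) were the highest. The 6 proliferation markers ran from Mki67 (−0.06), Ccnb1 (0.0032) and Top2a (0.03) over Bub1 (0.09) and Cdk1 (0.18) to Plk1.

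Markers of the motile axoneme had a far lower median than the ciliary kinesins. Of 22 listed, 20 were matched to the array and 19 measured (Spag6 was not). All 19 had ratios below 0, 11 were at least 2-fold lower and the median was −1.12. Of the 19, 18 were measured in both channels, and the median over those 18 was −1.07. The summed linear brightness of the 19 was 23165 in the heterozygous and 7358 in the homozygous lung. Cfap126 (−2.74 ± 0.33), Drc1 (−2.28 ± 0.31) and Dnali1 (−2.23 ± 0.37) were the lowest, and Dnah5 (−0.42 ± 0.37) and Dnah11 (−0.35 ± 0.21) the highest. Foxj1 itself had levels of 9.53 and 7.61, a ratio of −1.92 ± 0.30 on its single probe, and whether that probe lies in the part of the gene that lacZ replaces was not examined. Kif9 thus lay on the side of these genes at a ratio inside their range, which runs from −2.74 to −0.35. Kif3a, Kif3b and Kif6 lay above that range. Kif17, at 0.11 ± 0.50, cannot be placed, because it passed the background filter in the homozygous channel alone and its direction is not settled. Kif27, at −0.28 ± 0.36, stood close to the upper end of the axoneme range. Under the settings given above for Kif27 it was lower, and with no filter on dim probes it was −0.21. The axoneme median moved as well, to −1.35 with an offset of 0, −1.50 with the scanner's log ratio and −0.95 with median centring. Whether Kif27 falls inside the range of the markers under those settings was not examined.

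**Figure D4:**
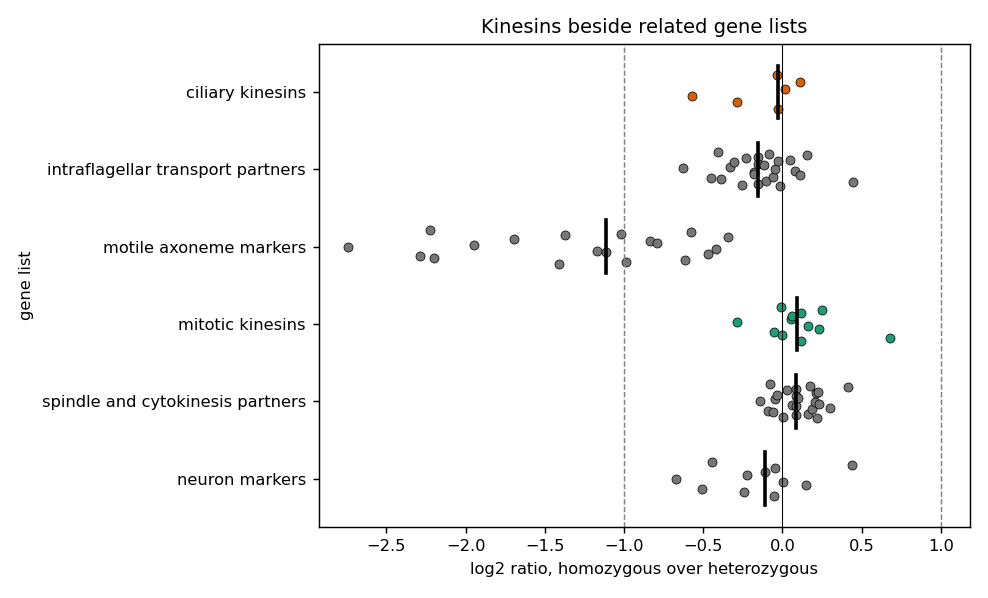
Log2 ratio of each measured gene (points) and the list median (black bar) for the ciliary and mitotic kinesins and 4 related lists, with dashed lines at 2-fold. Axoneme markers have a median of −1.12, while the other 5 lists lie between −0.15 and 0.09.

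Transport kinesins, which carry vesicles and organelles, held the lowest ratio of all members. Kif5a, a heavy chain of conventional kinesin found mainly in neurons, had levels of 8.21 and 7.31 and a ratio of −0.90 ± 0.25, or 1.87-fold lower. Its other probe was not well above background. The related neuronal heavy chain Kif5c was at −0.24 ± 0.23 with levels of 7.61 and 7.37, and Kif5b, the form made in all tissues, at −0.02 ± 0.20. The 11 neuron markers measured had a median of −0.11. Their summed linear brightness was 2877 in the heterozygous and 2749 in the homozygous lung. Tubb3, the brightest marker (levels of 10.10 and 10.25, ratio 0.15), made up the largest part of both sums. The marker median depended on the processing. It ran from −0.34 under median centring to −0.09 when dim probes were not filtered (12 genes), and removing the offset gave −0.22. Under median centring, genes at mean levels of 6 to 8, where most of these markers lie, had a median of −0.22. Stmn2 (−0.67 ± 0.42), Prph (−0.51 ± 0.26) and Nefl (−0.44 ± 0.24) were the lowest of the neuron markers and Nefm (0.44 ± 0.26) the highest. The part of nerve tissue in the ratio of Kif5a was not tested.

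The other transport kinesins were closer to 0. Kif1a, the motor of synaptic vesicle precursors, stood at 0.07 ± 0.25. Kifc2, a minus-end motor described in neurons, was at −0.34 ± 0.21, and Kif1c, which moves vesicles in many cell types, at −0.24 ± 0.21, with 3 of its 4 probes between −0.26 and −0.23 and the fourth at 0.01. With median centring Kif1c was at 0.23, beside a median of 0.22 over all genes. Genes at mean levels of 10 to 12, where the gene value of Kif1c lies, had a median of 0.53 under that centring. The upper end was held by Kif16b, an endosome motor, at 0.22 ± 0.21 and Kif21b at 0.20 ± 0.22. Between them lay Kif21a (−0.21), Kif1b (−0.08), Kif13a (0.11) and Kifc3 (0.18).

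Kinesin light chains, which link the conventional heavy chain to its cargo, had a median of −0.37, the lowest of the kinesin groups under the reported processing. Klc3, a light chain known from the sperm tail, where it binds outer dense fibres and mitochondria, had levels of 12.25 and 11.61. The ratio was −0.64 ± 0.21, or 1.56-fold lower. Klc4 had levels of 11.15 and 10.59 and a ratio of −0.56 ± 0.21, or 1.47-fold lower. For the remaining pair, Klc2 was at −0.19 ± 0.21 and Klc1, the light chain abundant in nerve cells, at 0.10 ± 0.21. With median centring Klc3 was at −0.06 and Klc4 at −0.02. The median of the light chains was then 0.02, and that of the ciliary kinesins was lower, at −0.11. Genes at mean levels of 10 to 12, where both lie, had a median of 0.53 under that centring, so Klc3 and Klc4 stayed below the median of genes of like brightness.

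Kif12, known from tubule epithelium of the kidney and from bile ducts, had the highest ratio of all members. The levels of its 2 probes were 7.62 and 9.35 in the heterozygous lung and 8.68 and 10.09 in the homozygous lung. Both were higher in the homozygous lung, at 1.06 ± 0.26 and 0.74 ± 0.22, and the gene's ratio of 0.90 ± 0.24 corresponds to 1.86-fold. A further probe that only the description assigns to Kif12 was dim and passed the background filter in the homozygous channel alone, at 0.06 ± 0.68. Kif26b, a kinesin without motor activity, was at 0.27 ± 0.23 and its relative Kif26a at 0.01 ± 0.21. The pseudogene Kifc5c-ps stood at −0.05 ± 0.27.

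The probes of the members at the ends of the range are given because each rests on 1 or 2 spots. On mm8, Kif5a was read at chr10:126628690-126628749 (minus strand), Klc3 at chr7:18553035-18553094 (minus), Klc4 at chr17:46093973-46094032 (minus) and Kif12 at chr4:62652038-62652097 (second probe below) and, across a junction, chr4:62652294-62652590 (first probe), both minus.
Kif5a: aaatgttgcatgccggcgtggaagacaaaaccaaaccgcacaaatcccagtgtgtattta
Klc3: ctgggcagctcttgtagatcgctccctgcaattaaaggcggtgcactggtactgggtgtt
Klc4: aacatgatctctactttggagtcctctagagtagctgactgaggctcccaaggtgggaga
Kif12, first probe: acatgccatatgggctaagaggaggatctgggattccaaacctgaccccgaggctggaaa
Kif12, second probe: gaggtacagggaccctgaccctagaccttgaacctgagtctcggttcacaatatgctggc
Kif18b: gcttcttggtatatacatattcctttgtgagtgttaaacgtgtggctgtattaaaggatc

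Agreement between probes of a gene limits how small a difference can be read. Of 24 kinesin genes with several measured probes, 11 had probes of opposite sign (45.8%), close to the 46.3% of all 7143 such genes. In Kif1b, Kif3b, Kif13a and Kif26a, probes of opposite sign each lay beyond their own error, although the lower probe of Kif13a was within it on the scanner's own ratio (−0.17). Kif1b, a motor of mitochondria and synaptic vesicles, had probes from −0.44 to 0.28, the widest gap among the kinesins at 0.72. The 3 probes of Kif13a, a vesicle motor, ran from −0.23 to 0.30, and those of Kif26a were at −0.23 and 0.25. Levels of the probe farthest below 0 were 11.05 and 10.61 for Kif1b, 8.61 and 8.38 for Kif13a, and 8.09 and 7.86 for Kif26a. Levels of the probe farthest above 0 were 7.07 and 7.35 for Kif1b, 7.04 and 7.33 for Kif13a, and 9.89 and 10.14 for Kif26a. The median gap between the highest and lowest probe was 0.16 for the kinesins and 0.25 for all genes.

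Calls at 2-fold differed between background and dye corrections. With no offset added after background correction, Kif5a stood at −1.17 and Kif12 at 1.06. With the log ratio as the scanner computed it, Kif5a was at −1.35, Kif9 at −1.01 and Kif12 at 1.18, while Kif27 reached −0.88. With median centring, Kif12 and Kif18b were both at 1.20. Over all 9 alternatives Kif9 ranged from −1.01 to −0.57, Kif5a from −1.35 to −0.38 and Kif12 from 0.74 to 1.20, each on 1 side of 0 throughout. These are not 9 independent checks. The series matrix repeats the scanner's ratios, and for Kif9, read by 1 probe, the settings on the choice of probes return the reported value.

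Promoters were searched for letters known from ciliary and cell cycle genes, in RefSeq sequence on GRCm38.p6 from 250 bases before to 50 after each gene's start. The searched letters, on both strands and with no check for overlaps between motifs, were CCAAT, the cell cycle homology region (TTTGAA or TTCGAA), the forkhead core GTAAACA, and the X-box read by Rfx factors. Of the 45 kinesin genes, 36 had a promoter in the table. The cell cycle letters were found in 10 of 11 mitotic kinesins, against 1 of 6 ciliary kinesins and 20.2% of 17491 protein-coding genes. CCAAT was found in 7 of 11 mitotic and 4 of 6 ciliary kinesins, and in 42.3% of all genes. An X-box was found in Kif9 alone among the 6 ciliary kinesins, in Kif18a, Kif18b and Kif23 among the mitotic ones and in the light chain Klc4, against 2.55% of all genes. The forkhead letters were in none of the 36 promoters and in 3.45% of all genes. These matches are letters in a window and not measured binding sites.

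The promoter of Kif9 is shown with the X-box in capitals, chr9:110476744-110477043 on the plus strand, because Kif9 had the lowest ciliary ratio. Those of Kif18b, chr11:102925075-102925374 on the minus strand, and Kif4, chrX:100625815-100626114 on the plus strand, are shown with CCAAT and the cell cycle letters in capitals.
Kif9: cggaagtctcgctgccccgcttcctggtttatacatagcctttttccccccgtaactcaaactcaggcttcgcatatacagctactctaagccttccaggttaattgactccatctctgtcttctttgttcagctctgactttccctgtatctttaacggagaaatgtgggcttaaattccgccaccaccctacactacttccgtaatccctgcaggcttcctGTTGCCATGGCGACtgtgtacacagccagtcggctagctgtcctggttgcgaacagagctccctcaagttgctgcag
Kif18b: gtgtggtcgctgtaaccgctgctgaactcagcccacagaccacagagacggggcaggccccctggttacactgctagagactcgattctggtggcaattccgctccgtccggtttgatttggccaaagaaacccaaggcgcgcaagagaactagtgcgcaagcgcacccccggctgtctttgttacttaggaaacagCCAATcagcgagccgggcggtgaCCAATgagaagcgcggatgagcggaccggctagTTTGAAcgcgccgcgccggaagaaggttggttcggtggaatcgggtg
Kif4: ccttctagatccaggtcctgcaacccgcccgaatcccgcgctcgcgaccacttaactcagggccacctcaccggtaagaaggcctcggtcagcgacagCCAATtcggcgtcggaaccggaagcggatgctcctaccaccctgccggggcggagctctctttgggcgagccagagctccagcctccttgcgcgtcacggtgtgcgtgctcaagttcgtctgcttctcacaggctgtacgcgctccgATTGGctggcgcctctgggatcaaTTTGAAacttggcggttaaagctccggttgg

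**Figure D5:**
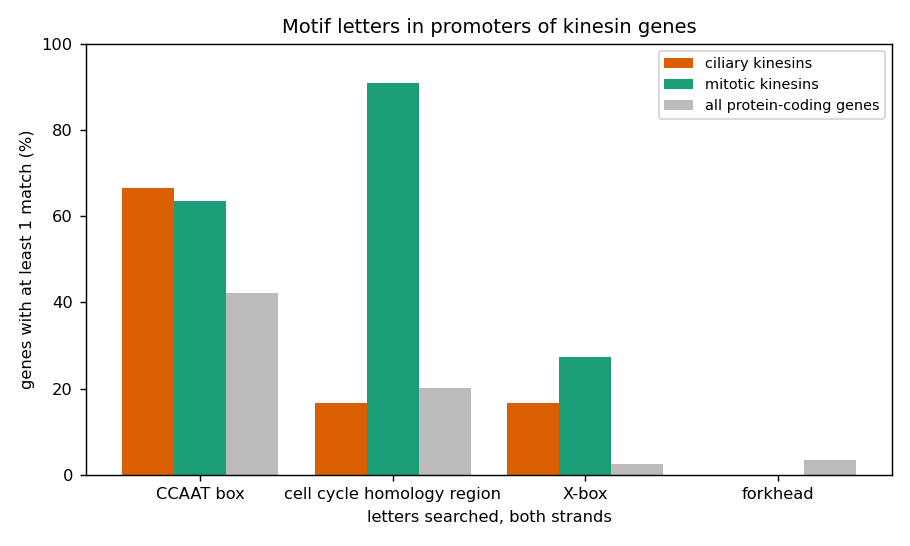
Percent of genes with at least 1 match to each set of letters in the 300-base promoter window, for the 6 ciliary kinesins, the 11 mitotic kinesins with a promoter in the table and all 17491 protein-coding genes. The cell cycle letters are found in 90.9% of the mitotic kinesins, 16.7% of the ciliary ones and 20.2% of all genes.

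As facts of the whole array, 69.0% of mouse spots were well above background in the heterozygous and 75.6% in the homozygous channel. Transcripts of other cells that lay lower in the homozygous lung included cardiac and striated muscle (10 of 10 listed markers measured, summed brightness 49971 and 19059, median −1.47) and club and goblet cells (6 of 7 measured, summed brightness 194699 and 74069, median −1.43). Neuroendocrine cells (7 of 8 measured, 6 in both channels, summed brightness 4382 and 1875, median −0.46) also had a median below 0. So did red blood cells (6 of 8 measured, summed brightness 218282 and 204631, median −0.86). Most of the red cell sum is Hba-a1 (levels of 17.51 and 17.56, ratio 0.06). Most of the club and goblet sum is Scgb3a2 (levels of 17.34 and 15.99, ratio −1.35). The part of these cells in the kinesin ratios was not tested.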

How the data were processed

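RNA of each lung was amplified, labelled and hybridised to 1 two-colour Agilent array, per the labels' protocols. The 2 deposited scanner files were identical and counted as 1 array. Spot and background brightness were deposited as intensity by the authors, with processed intensity from Agilent Feature Extraction 9.5.3.1, per the file headers and the submitters' processing notes. The deposited log ratio is log10 of red over green, and its error is a score from the software's error model, per the file headers. The series matrix deposited by the authors equals the processed intensity times 1.68 with a floor of 15, as found by comparison, which settles scale and direction. Its medians are 139.8 (heterozygous) and 138.8 (homozygous), and why the factor was applied is unknown.

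Mean signals were corrected by normexp (offset 50) and loess within the array in limma 3.58.1 (R 4.3.3), which pulls ratios of dim spots towards 0. Outlier spots (169) were left out, and 0 were saturated. Probes counted as measured where over a 0.5 share of spots passed the scanner's background flag in either channel, and a gene's value is the median over such probes. A bound for a gene seen in 1 channel sets that channel against the higher of the other's own level and the lowest level passing the flag there. Accessions in a RefSeq list (GRCm38.p6) named 24367 of 41174 probes, symbols 6307 and synonyms 2425, and the others kept the file's name except the Kif6 probe. Promoters are RefSeq's on that build, and probe positions are the file's, on mm8. The array steps and motif search were tested on simulated data. Figures were drawn in matplotlib 3.10.9 from tables made with Python 3.11.15, pandas 2.3.3 and numpy 2.4.6.

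With 1 sample a group there is no test. Every ciliary and mitotic kinesin, Kifap3 and any member past 2-fold or with discordant probes is named, other members by group, and of the partner lists the 3 lowest and 2 highest. The members and lists were chosen with earlier results of these data known. From the neuron list, 1 gene is not reported here. The values were recomputed under 9 other settings, and 3 more were added after the data were seen.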

Additional observations from a re-analysis of the deposited data

How the results depend on the processing

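Of the kinesin ratios recomputed under 9 other settings, 345 moved by less than the gene's scanner error and 41 by more, 24 of these with median centring in place of loess. The settings are not independent, since keeping outlier spots left all 43 ratios in place and the series matrix repeats the scanner's ratios. Median centring moved the mitotic median to 0.66, the median of all kinesins to 0.31 and the ciliary minus mitotic difference to −0.77, with 2 kinesins at least 2-fold higher. With an offset of 0 there was 1 kinesin at least 2-fold lower and 1 higher, and with the scanner's log ratio or the series matrix 2 were lower and 1 higher. Over all genes the counts lower and higher were 398 and 122 as reported, 773 and 221 with an offset of 0, 1143 and 593 with the scanner's log ratio, 1139 and 457 with the series matrix, and 302 and 724 with median centring. The ciliary median was 0.01 with the brightest probe of each gene and lay between −0.11 and −0.00097 under the other 8. Among settings chosen after seeing the data, the ciliary median was −0.05 with probes named only by description and −0.03 without Kif17. The mitotic median was 0.12 with probes on their gene's strand only, which leaves out Kifc1. No paired analysis was possible because each genotype has 1 lung. Among the dim genes, Kif17 was measured in 1 channel and Kif27 had an error of 0.36.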

Other observations

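Of 5 further kinesin probes that only descriptions or an old clone name assign to a gene, 3 were measured in both channels. A second Kif6 probe stood at −0.12 ± 0.30, a second Klc2 probe at −0.07 ± 0.39 and a second Kif26b probe at −0.08 ± 0.35, each within its error. That Klc2 probe lies on the plus strand and the other Klc2 probe on the minus strand, so it is uncertain whether it reads Klc2. The Kif12 probe passed the background filter in the homozygous channel alone, and a Kif23 probe in neither channel.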
